A study of Mus musculus with 48 samples.

Results

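Connexins are the membrane proteins of gap junctions, the channels through which adjoining cells exchange ions and small metabolites. Channels built from different connexins differ in what they let pass, and a cell type usually carries a small set of them. In the pancreas Gjd2 (protein Cx36) couples beta cells and helps to synchronise their calcium oscillations, Gjb1 (Cx32) and Gjb2 (Cx26) couple acinar cells, and Gja1 (Cx43), Gjc1 (Cx45), Gja4 (Cx37) and Gja5 (Cx40) are known above all from mesenchyme, muscle and vessel walls as well as from some epithelia. These 7 genes were described over 13 pancreatic populations sorted from mouse. For each gene the brightest probe was taken, by its mean over the 48 arrays, among the probes that the platform annotation assigns to that gene alone. All 7 were found, among 18194 genes with such a probe, and 6 of them exceeded 100 on the linear scale (6.64 on the log2 scale) in at least 1 array. Gja5 did not.

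The arrays hold RNA from cells sorted by flow cytometry from pancreata of CD-1 background, 3 to 5 arrays per population and 48 in all. The only mutant population is E15 Neurog3-null cells (n = 4), GFP-positive cells of embryos with eGFP knocked into both Neurog3 alleles, the gene for the transcription factor that starts the endocrine program. The other 12 populations are wild type at Neurog3: E11 progenitors carrying a Sox9-eGFP transgene (n = 4), E15 progenitors (n = 3), E15 acinar cells (n = 3) and E15 endocrine progenitors (n = 3) sorted with surface antibodies from Neurog3-eGFP transgenic embryos, beta cells carrying MIP-GFP (GFP under the mouse insulin promoter) taken at E15, P15 and adult age (n = 4 each) and at E17 and P1 (n = 3 each), alpha cells of P1 (n = 4) and adult age (n = 5) carrying Glucagon-Venus, and adult duct cells sorted by anti-CD133 (n = 4). Stages are named as in the study's text, where E11, E15 and E17 stand for the labels' E11.5, E15.5 and E17.5. P1 is labelled P0, and adults were 8 to 12 weeks old. The titles of the Neurog3-null arrays read E1.5, whereas their stage label gives E15.5. Animals were pooled for each array, the Neurog3-null cells and the endocrine progenitors carry different eGFP alleles, and reporter protein that persists can keep descendants of a labelled cell in the gate. Pancreata of E11, of which only the dorsal part was taken, were dissociated with TrypLE, and those of E15 and E17 with trypsin. P1 pancreata were dissociated with collagenase and dispase, and P15 and adult pancreata with collagenase. Stage and dissociation therefore cannot be told apart between E11 and E15, across birth or from P1 to later ages.

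Expression is given throughout as the log2 value that the authors deposited, 1 per probe and array, and a difference is the first population minus the second on the log2 scale, with the standard error (SE) of a limma fit of 13 population means over all 48 arrays. Differences of at least 1 in either direction with an adjusted p below 0.05 (Benjamini-Hochberg over 32078 probes) are termed called. The p-values measure the spread between these pooled arrays. Array medians lay between 6.58 and 6.88, and probes of different genes cannot be ranked against each other on this scale. Marker genes showed which other RNA the populations held. A list of 16 macrophage and leukocyte genes averaged 10.79 to 11.64 in the 4 Neurog3-null arrays, 10.80 to 11.54 in the 4 adult beta arrays and 10.98 to 12.14 in the 4 adult duct arrays, against 4.96 to 6.08 in E11 progenitors, E15 progenitors, acinar cells and endocrine progenitors, although leukocytes had been gated out by CD45. Glucagon (Gcg) averaged 13.68 in E11 progenitors, and Ins2 averaged 14.46 in P1 alpha cells and 13.91 in adult alpha cells, where beta cells of P1 had 14.29. The study's text states that probes for hormone mRNA can saturate. In sorted bulk samples such as these, fewer cells of a type and less RNA per cell cannot be told apart.

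Upstream sequences were available from RefSeq (GRCm38.p6) for 6 of the 7 genes. Those of Gjd2 and Gjb2 are shown because these genes differed most, in opposite directions, between Neurog3-null cells and endocrine progenitors. Each is the stretch of 250 bases before the annotated start, 5′ to 3′ on the gene's strand. Capitals mark the E-box, CANNTG, the letters that basic helix-loop-helix proteins such as Neurog3 are known to bind. CANNTG reads the same on both strands.
Gjd2, chr2:114013620-114013869, minus strand: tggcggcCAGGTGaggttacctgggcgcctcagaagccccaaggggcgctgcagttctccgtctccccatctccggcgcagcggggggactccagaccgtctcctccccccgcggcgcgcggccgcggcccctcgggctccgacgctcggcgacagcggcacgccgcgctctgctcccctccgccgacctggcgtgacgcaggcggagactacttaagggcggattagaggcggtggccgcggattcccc
Gjb2, chr14:57104703-57104952, minus strand: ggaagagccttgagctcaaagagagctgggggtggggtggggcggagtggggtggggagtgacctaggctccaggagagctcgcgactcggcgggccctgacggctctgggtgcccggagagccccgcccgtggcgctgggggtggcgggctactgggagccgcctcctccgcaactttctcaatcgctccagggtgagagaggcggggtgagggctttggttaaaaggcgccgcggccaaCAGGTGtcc
Each stretch held 1 E-box, with the letters CAGGTG in both genes. Of 32851 promoters in the same table, 66.2% held at least 1 E-box in the 250 bases before the start, so its presence does not set these genes apart. Gja1 had 1 E-box, Gja4 and Gja5 had none, and the 4 annotated starts of Gjb1 had between 1 and 5. A GC box (GGGCGG or its complement CCGCCC) stood once in the Gjd2 stretch and at 2 positions in the Gjb2 stretch, against 32.7% of all promoters with at least 1. These matches describe letters and were not tested for binding.

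Gjd2 was high in every endocrine population and in E11 progenitors, and low in every other population. In beta cells its expression was 12.83, 12.63, 12.85 and 12.79 at E15, 12.25, 12.70 and 12.67 at E17, 12.26, 12.22 and 12.43 at P1, 13.15, 13.30, 13.09 and 12.85 at P15, and 12.57, 12.90, 12.73 and 12.88 in adults. Adult alpha cells had 11.11, 10.95, 11.60, 11.52 and 11.51, and P1 alpha cells 12.42, 11.99, 12.44 and 12.62. Endocrine progenitors had 12.10, 12.16 and 11.62, and E11 progenitors 11.15, 11.12, 11.38 and 11.19. All these arrays exceeded 100 on the linear scale. Far below them were adult duct cells with 4.34, 4.96, 3.79 and 3.55, acinar cells with 4.67, 4.35 and 4.10, Neurog3-null cells with 5.43, 5.28, 4.61 and 4.44, and E15 progenitors with 4.90, 6.07 and 4.96. No array of these 4 populations exceeded 100 on the linear scale, so the size of a difference from them is not exact. In the order of the 13 means, P15 beta cells came first and adult duct cells last. Arrays of neighbours overlapped except at the steps from P15 beta cells to E15 beta cells, from P1 beta cells to endocrine progenitors, from endocrine progenitors to adult alpha cells, and from E11 progenitors to E15 progenitors, where the mean dropped by 5.90.

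**Figure D1:**
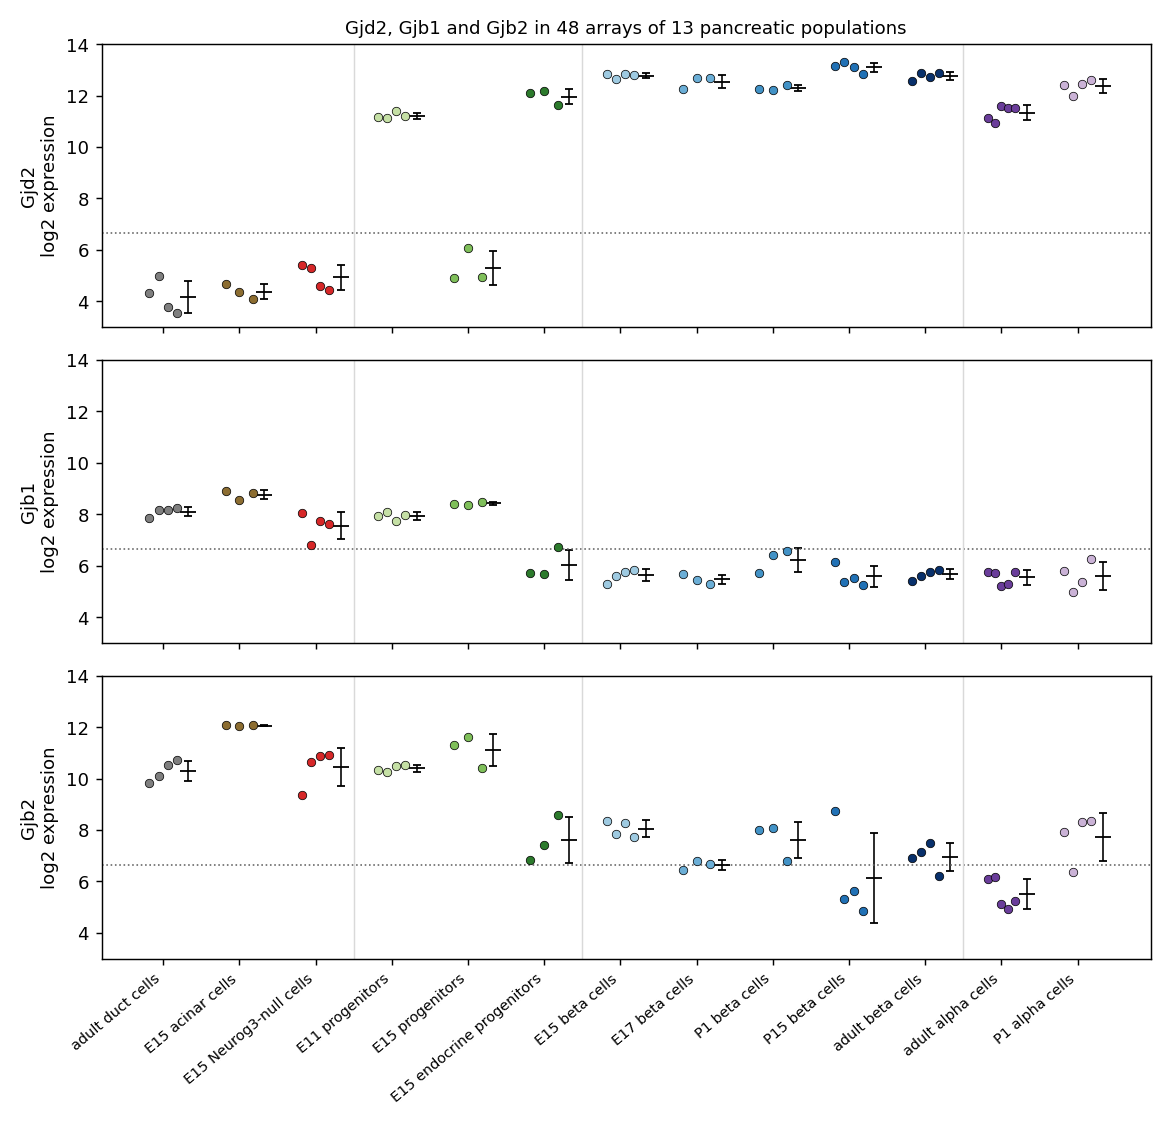
Expression (log2, y axis) of Gjd2, Gjb1 and Gjb2 in each of 48 arrays (points), with the mean and SD of the 13 populations beside them (bars) and a dotted line at 100 on the linear scale. Gjd2 is high in the endocrine populations, where Gjb1 and Gjb2 lie below every array of the other populations. In E11 progenitors Gjd2 (11.21 ± 0.12), Gjb1 (7.93 ± 0.14) and Gjb2 (10.40 ± 0.13, SD, n = 4) all lie above the line. Gjb2 also lies above it in all endocrine progenitor, E15 beta and P1 beta arrays and in some other endocrine arrays, and Gjb1 in 1 endocrine progenitor array.

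Gjd2 was 6.13 higher in the 8 endocrine populations than in the 4 other wild-type populations (SE 0.11, adjusted p 2.3e-35), although the arrays of the groups overlapped because E11 progenitors belong to the second. Between E15 endocrine progenitors and E15 progenitors Gjd2 was 6.65 higher (SE 0.27, adjusted p 9.4e-22). It fell by 7.02 in Neurog3-null cells against endocrine progenitors (SE 0.26, adjusted p 8.9e-24). In Neurog3-null cells Gjd2 differed from E15 progenitors by -0.37 (SE 0.26, adjusted p 0.263), with overlapping arrays. Neurog3 itself read 10.97, 10.29, 10.70 and 10.32 in Neurog3-null arrays and 13.34, 13.41 and 13.44 in endocrine progenitors. Where its probe lies relative to the knocked-in eGFP was not given in the sources used here. A list of 9 endocrine progenitor genes averaged 6.78 to 7.40 in Neurog3-null arrays and 12.83 to 13.07 in endocrine progenitors, and all 9 were called lower. The 15 tested macrophage and leukocyte genes were all called higher in the same comparison, where 14.7% of all probes were called higher and 16.4% lower. The part of leukocyte RNA in the Gjd2 difference was not tested.

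Gjd2 was 5.90 lower in E15 than in E11 progenitors (SE 0.26, adjusted p 7.6e-21). The E11 cells were sorted by Sox9-eGFP from dorsal pancreas, and the E15 progenitors with surface antibodies from Neurog3-eGFP embryos. Age, gate, reporter strain, part of the pancreas and enzyme therefore cannot be told apart in this difference. The E11 arrays also held endocrine RNA. The 9 endocrine progenitor genes averaged 8.62 to 9.43 in E15 progenitors and 10.82 to 11.08 in E11 progenitors, and 6 alpha cell genes averaged 7.10 to 7.39 at E15 and 10.96 to 11.39 at E11. The part of these cells in the Gjd2 difference was not tested. Within beta cells Gjd2 differed little over development. It stood 0.79 higher in P15 than in P1 beta cells (SE 0.26, adjusted p 0.0093) without reaching the minimum fold, and no step between neighbouring beta cell stages was called with this probe. In alpha cells Gjd2 fell by 1.03 in adults against P1 (SE 0.22, adjusted p 2.1e-04). This difference lay at the minimum fold and was under it without P1 alpha replicate 4 (-0.94), adult alpha replicate 1 (-0.97) or adult alpha replicate 2 (-0.93). It was also under it after a further quantile normalization (-0.99), with each array centred on its median (-0.91), with array weights (-0.88), with a second probe (-0.92) and with the mean of both probes (-0.97). Adult beta cells exceeded adult alpha cells by 1.43 (SE 0.22, adjusted p 1.7e-06), with no overlap between the arrays. P1 beta cells and P1 alpha cells differed by -0.06 (SE 0.26, adjusted p 0.869). Genes listed for beta cells were also read in the alpha arrays. A list of 9 beta cell genes averaged 10.80 to 11.58 in P1 alpha and 9.71 to 10.50 in adult alpha arrays. The same list averaged 11.88 to 12.15 in P1 beta and 12.76 to 12.94 in adult beta arrays. Genes listed for alpha cells were likewise read in beta arrays. The 6 alpha cell genes averaged 11.73 in E15 beta, 10.30 in P1 beta and 9.59 in adult beta cells, against 11.38 in P1 alpha and 11.48 in adult alpha cells. The lists do not separate genes that alpha and beta cells share from RNA of the other cell type. The part of beta cell RNA in the Gjd2 values of alpha cells was not tested. A second Gjd2 probe followed the first (r 0.92 over the 13 population means) over a narrower range, 5.38 against 8.94. With it the difference was -2.67 for E15 against E11 progenitors, 2.53 for endocrine progenitors against E15 progenitors, -3.03 for Neurog3-null cells against endocrine progenitors and 2.59 for adult beta against adult alpha cells. The second probe was also called in P15 against P1 beta cells (2.25), in P1 against E17 beta cells (-1.44) and in E15 beta cells against endocrine progenitors (1.43).

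The genes of the acinar connexins, Gjb1 and Gjb2, had the opposite distribution. Gjb2 was highest in acinar cells, with 12.07, 12.03 and 12.09, followed by E15 progenitors with 11.29, 11.60 and 10.40. Neurog3-null cells had 9.38, 10.65, 10.89 and 10.91, E11 progenitors 10.33, 10.24, 10.50 and 10.52, and adult duct cells 9.83, 10.10, 10.52 and 10.72. The acinar arrays lay above those of E15 progenitors, whereas E15 progenitors, Neurog3-null cells, E11 progenitors and adult duct cells followed each other in the order of means with overlapping arrays. Endocrine progenitors had 6.82, 7.42 and 8.60. In beta cells Gjb2 was 8.36, 7.84, 8.29 and 7.72 at E15, 6.43, 6.80 and 6.66 at E17, 7.98, 8.07 and 6.81 at P1, 8.72, 5.32, 5.62 and 4.84 at P15, and 6.92, 7.14, 7.51 and 6.21 in adults. Adult alpha cells had 6.10, 6.18, 5.11, 4.92 and 5.24, and P1 alpha cells 7.91, 6.35, 8.29 and 8.34. No endocrine array reached the lowest of the other arrays, and among the endocrine populations all neighbours in the order overlapped.

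Gjb1 kept a similar order on its own scale. Its means were 8.75 ± 0.18 in acinar cells (SD, n = 3), 8.43 ± 0.06 in E15 progenitors (n = 3), 8.10 ± 0.18 in adult duct cells (n = 4), 7.93 ± 0.14 in E11 progenitors (n = 4) and 7.55 ± 0.53 in Neurog3-null cells (n = 4). The 8 endocrine populations had means from 5.47 at E17 in beta cells to 6.23 at P1 in beta cells, and arrays from 4.99 to 6.71. The acinar and the E15 progenitor arrays did not overlap with their neighbours in the order of means, and among the endocrine populations every neighbouring pair overlapped. Over the 13 population means Gjb1 and Gjb2 correlated at r 0.95, Gjd2 and Gjb1 at r -0.88, and Gjd2 and Gjb2 at r -0.84. These values describe 13 points that share a normalization and carry no test.

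In the 8 endocrine populations against the 4 other wild-type populations Gjb2 fell by 3.93 (SE 0.24, adjusted p 7.3e-18) and Gjb1 fell by 2.59 (SE 0.11, adjusted p 1.4e-22), without overlap. Gjb2 fell by 3.48 (SE 0.59, adjusted p 8.2e-06) and Gjb1 fell by 2.39 (SE 0.28, adjusted p 4.8e-09) in endocrine progenitors against E15 progenitors. In Neurog3-null cells against endocrine progenitors Gjb2 rose by 2.85 (SE 0.56, adjusted p 3.9e-05) and Gjb1 by 1.52 (SE 0.26, adjusted p 5.3e-06), again without overlap. Acinar and duct genes moved with them. A list of 17 acinar genes averaged 11.10 to 12.10 in Neurog3-null arrays and 8.33 to 10.48 in endocrine progenitors, with 11 called higher and 0 lower. Of 14 duct genes 7 were called higher and 1 lower, against 14.7% and 16.4% of all probes. Over the 13 population means the acinar list correlated at r 0.425 with Gjb1 and r 0.412 with Gjb2. The duct list correlated at r 0.677 with Gjb1 and r 0.713 with Gjb2. The part of acinar and duct RNA in the Gjb1 and Gjb2 differences was not tested. Neurog3-null cells and E15 progenitors differed by -0.64 for Gjb2 (SE 0.56, adjusted p 0.382) and by -0.88 for Gjb1 (SE 0.26, adjusted p 0.0069), both under the minimum fold. Without Neurog3-null replicate 1 the Gjb1 difference was -1.04 and was called, and a second Gjb1 probe was called with all arrays (-1.05, adjusted p 4.0e-05).

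Acinar cells exceeded E15 progenitors by 0.97 for Gjb2 (SE 0.59, adjusted p 0.294) and by 0.33 for Gjb1 (SE 0.28, adjusted p 0.491), so neither passed. Their arrays did not overlap, which with so few arrays on each side carries no test. In alpha cells Gjb2 fell by 2.21 in adults against P1 (SE 0.49, adjusted p 2.3e-04), where 10 of 14 duct genes and 13.1% of all probes were also called lower. Gjb2 also fell by 1.49 in P15 against P1 beta cells (SE 0.56, adjusted p 0.0235). The P15 arrays held a wide range. P15 beta replicate 1 read 8.72, above all 3 P1 arrays, and the other 3 P15 arrays 4.84 to 5.62, below them. Without that replicate the difference was -2.36, Gjb2 was called in adult against P15 beta cells (1.68, against 0.82 with all arrays) and in postnatal against fetal beta cells (-1.33, against -0.90 with all arrays), and the P15 against P1 call was kept. That call was lost without P1 beta replicate 1 (-1.31), P1 beta replicate 2 (-1.27), P15 beta replicate 2 (-1.22), P15 beta replicate 3 (-1.33) or P15 beta replicate 4 (-1.06). It was lost too with the replicate number as a block (-1.06, adjusted p 0.0762), in the methods' t-test (adjusted p 0.326) and in a limma fit on these arrays alone (adjusted p 0.199). P15 beta replicate 1 also had the highest mean of the 17 acinar genes among the P15 beta arrays, 12.76 against 9.84 to 10.30. Adult beta cells exceeded adult alpha cells for Gjb2 by 1.43 (SE 0.49, adjusted p 0.0158), with the 17 acinar genes at 11.96 to 12.80 in adult beta arrays and 7.09 to 11.81 in adult alpha arrays. The call was lost without adult beta replicate 3 (1.24, adjusted p 0.0595), and the part of acinar RNA in it was not tested.

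Gja1 was high in every population except P15 beta cells and adult alpha cells. E15 progenitors had 13.20, 13.09 and 13.11, adult duct cells 12.83, 13.22, 12.85 and 12.81, Neurog3-null cells 13.20, 12.62, 12.85 and 12.57, E11 progenitors 12.59, 12.70, 12.80 and 12.73, and acinar cells 12.50, 12.46 and 12.59. Endocrine progenitors lay lower, with 11.07, 11.498 and 11.74. Beta cells had 10.72, 10.54, 10.92 and 9.83 at E15, 11.90, 11.03 and 11.58 at E17, 12.09, 12.70 and 12.68 at P1, 8.77, 3.78, 3.60 and 6.04 at P15, and 10.29, 10.82, 10.16 and 10.26 in adults. The P15 arrays spread widely, and 3 of the 4 lay under 100 on the linear scale. Adult alpha cells had 4.98, 6.28, 3.71, 3.91 and 5.41, and P1 alpha cells 12.55, 11.87, 12.49 and 12.63. All adult alpha arrays lay under 100 on the linear scale, and they overlapped only with P15 beta cells. In the order of the 13 means, neighbours were separated at the steps from E11 progenitors to acinar cells (narrowly), from endocrine progenitors to E15 beta cells and from adult beta cells to P15 beta cells.

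Gja1 fell by 7.53 in adult against P1 alpha cells (SE 0.54, adjusted p 1.2e-14) and by 6.94 in P15 against P1 beta cells (SE 0.61, adjusted p 3.1e-12). Adult beta cells were again higher, by 4.83 against P15 beta cells (SE 0.57, adjusted p 1.6e-08) and by 5.52 against adult alpha cells (SE 0.54, adjusted p 5.5e-11). RNA of other cell types differed in the same comparisons. In P15 against P1 beta cells all 12 mesenchyme and stellate cell genes were called lower, and their mean was 5.78 to 7.65 at P15 and 12.40 to 12.60 at P1. The same 12 were called lower in adult than in P1 alpha cells. Of all probes, 14.5% were called lower in the first of these comparisons and 13.1% in the second. In beta cells 14 duct genes averaged 8.04 to 9.09 at P15 and 9.92 to 10.51 at P1. In alpha cells they averaged 7.51 to 8.46 in adults and 9.41 to 10.18 at P1. Over the 13 population means Gja1 correlated at r 0.53 with the mesenchyme list. It correlated at r 0.83 with the duct list and at r 0.80 with a list of 8 arterial endothelium genes. In adult against P15 beta cells 14 of 15 tested macrophage and leukocyte genes, 7 of 12 mesenchyme genes and 7 of 14 duct genes were called higher, against 6.23% of all probes. P15 beta replicate 1, with the highest Gja1 of its group, also had the highest mean of mesenchyme genes (7.65 against 5.78 to 6.17) and of macrophage genes (9.05 against 6.63 to 7.68). The part of these cells in the Gja1 differences was not tested. Without that replicate the adult beta against P15 beta difference was 5.91, and in the methods' t-test with all arrays it was not called (adjusted p 0.0780). Over the postnatal against the fetal beta cell populations Gja1 fell by 3.53 (SE 0.38, adjusted p 3.0e-10), with overlapping arrays.

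**Figure D2:**
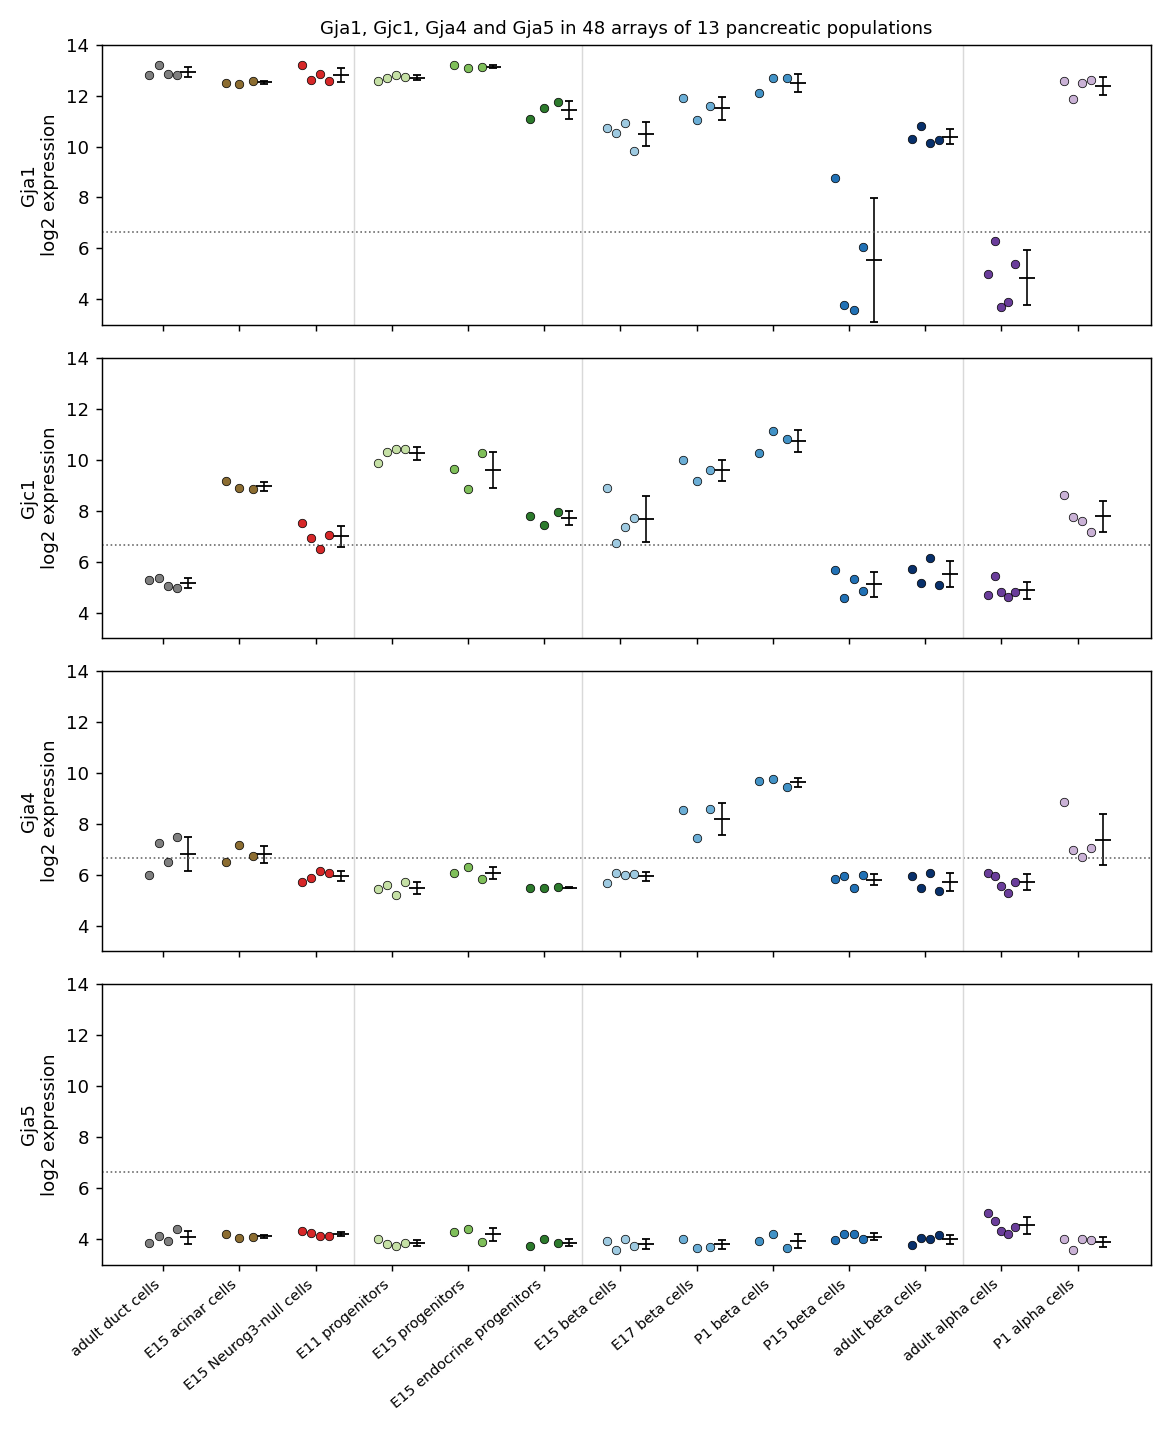
Expression (log2, y axis) of Gja1, Gjc1, Gja4 and Gja5 in each of 48 arrays (points), with the mean and SD of the 13 populations (bars) and a dotted line at 100 on the linear scale. Gja1 is low in P15 beta cells (5.55 ± 2.42, n = 4) and adult alpha cells (4.86 ± 1.07, n = 5), Gja4 is highest in P1 beta cells (9.63 ± 0.17, SD, n = 3), and no Gja5 point reaches the line.

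Between E15 endocrine progenitors and E15 progenitors Gja1 fell by 1.69 (SE 0.66, adjusted p 0.0400), with no overlap. The call was lost when any of the 6 arrays of the comparison was left out (adjusted p 0.0506 to 0.129), and also with all 45101 probes tested (adjusted p 0.0516). Neurog3-null cells exceeded endocrine progenitors by 1.37 (SE 0.61, adjusted p 0.0556), which was not called, although the lowest Neurog3-null array (12.57) lay above the highest endocrine progenitor array (11.74). The SE comes from all 13 populations, and the SD of Gja1 ranged from 0.06 in E15 progenitors to 2.42 in P15 beta cells. The difference was called in the methods' t-test (adjusted p 0.0091), with array weights (1.34, adjusted p 2.7e-04), with each array centred on its median (1.42, adjusted p 0.0460) and with the mean of all probes (1.39, adjusted p 0.0312). It was also called in a limma fit on the 7 arrays of this comparison alone (SE 0.22, adjusted p 9.5e-04), an alternative chosen after the data were seen. Over the 8 endocrine populations Gja1 was 2.93 lower than in the 4 other wild-type populations (SE 0.26, adjusted p 8.6e-13). In P1 beta against P1 alpha cells it differed by 0.10 (SE 0.61, adjusted p 0.907). Of 5 other Gja1 probes, 4 followed the brightest at r 0.998 or more over the 13 means. The remaining probe exceeded 100 on the linear scale in 4 arrays and followed it at r 0.41.

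Gjc1, whose protein couples smooth muscle and cardiac conduction cells, was highest in P1 beta cells, with 10.26, 11.12 and 10.80, and in E11 progenitors, with 9.88, 10.29, 10.41 and 10.42. E15 progenitors had 9.65, 8.84 and 10.28, and acinar cells 9.17, 8.88 and 8.84. In beta cells the earlier stages had 8.90, 6.73, 7.36 and 7.73 at E15 and 10.01, 9.16 and 9.59 at E17, and the later stages 5.67, 4.56, 5.33 and 4.87 at P15 and 5.72, 5.14, 6.16 and 5.07 in adults. Adult and P15 beta arrays all lay under 100 on the linear scale, and every fetal beta array lay above it. Adult alpha cells had 4.69, 5.43, 4.81, 4.62 and 4.80, and P1 alpha cells 8.62, 7.74, 7.58 and 7.16. Neurog3-null cells had 7.50, 6.93, 6.48 and 7.06, and endocrine progenitors 7.78, 7.43 and 7.94. Adult duct cells had 5.30, 5.36, 5.03 and 4.98. In the order of the 13 means, only the steps from acinar cells to P1 alpha cells and from Neurog3-null cells to adult beta cells separated the arrays of neighbours.

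Gjc1 was lower in postnatal than in fetal beta cells and in adult than in P1 alpha cells, and adult beta cells differed from P15 beta cells by 0.42 (SE 0.33, adjusted p 0.454). It was 4.02 lower in the 2 postnatal populations (P15 and adult) than in the 3 termed fetal (E15, E17 and P1) (SE 0.23, adjusted p 4.3e-18), 5.62 lower in P15 than in P1 beta cells (SE 0.36, adjusted p 4.8e-16) and 2.90 lower in adult than in P1 alpha cells (SE 0.32, adjusted p 7.3e-10), each without overlap. Adult duct cells were 4.42 lower than E15 progenitors (SE 0.36, adjusted p 2.3e-13). Among the earlier stages Gjc1 rose by 1.91 in E17 against E15 beta cells (SE 0.36, adjusted p 1.3e-04; the methods' t-test gave adjusted p 0.0909) and by 1.14 in P1 against E17 beta cells (SE 0.39, adjusted p 0.0420). The last call was lost without E17 beta replicate 2 (0.93), E17 beta replicate 3 (1.14), P1 beta replicate 2 (0.95) or P1 beta replicate 3 (1.11), in the methods' t-test (adjusted p 0.178), in the limma fit on these arrays alone (adjusted p 0.0713) and with a second probe (0.56). Gjc1 was 2.95 higher in P1 beta than in P1 alpha cells (SE 0.36, adjusted p 2.2e-08). Gjc1 also fell by 1.87 in endocrine progenitors against E15 progenitors (SE 0.39, adjusted p 1.4e-04) and by 2.60 in Neurog3-null cells against E15 progenitors (SE 0.36, adjusted p 3.8e-07). Neurog3-null cells differed from endocrine progenitors by -0.72 (SE 0.36, adjusted p 0.0868), which was not called. A second Gjc1 probe was called there (-1.10, adjusted p 0.0052).

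Mesenchyme genes moved with Gjc1 in beta and alpha cells. Their mean over 12 genes was 9.68 to 10.66 at E15, 11.70 to 12.34 at E17, 12.40 to 12.60 at P1, 5.78 to 7.65 at P15 and 7.26 to 8.43 in adult beta cells, and 5.79 to 6.21 in adult alpha cells against 10.69 to 11.68 in P1 alpha cells. In P1 beta against P1 alpha cells 8 of the 12 were called higher and 0 lower, against 11.8% and 7.99% of all probes. In progenitors Gjc1 and the list parted, since E11 progenitors had mesenchyme means of 8.05 to 8.46 with Gjc1 at 9.88 to 10.42, and E15 beta cells had means of 9.68 to 10.66 with Gjc1 at 6.73 to 8.90. Over the 13 population means Gjc1 and the list correlated at r 0.67. The part of mesenchyme in the stage differences was not tested.

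**Figure D3:**
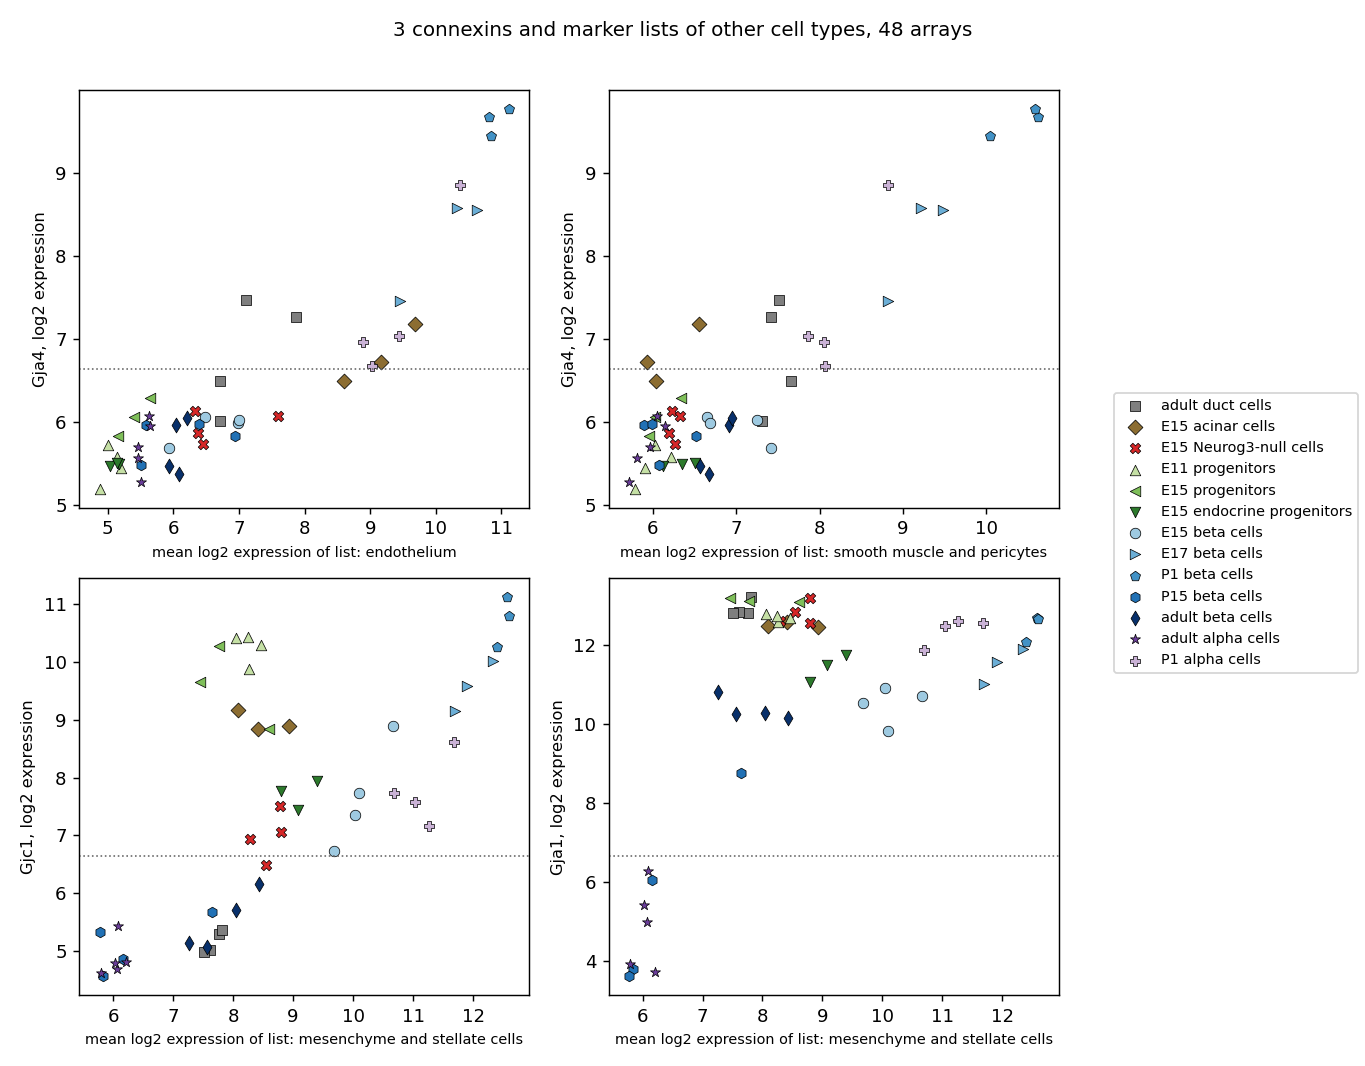
Expression (log2, y axes) of Gja4, Gjc1 and Gja1 against the mean log2 expression of a marker list of another cell type (x axes) in each of 48 arrays, with 1 symbol per population and a dotted line at 100 on the linear scale. Gja4 rises with the endothelial and the smooth muscle lists (r 0.93 and 0.94 over 13 population means), whereas Gjc1 is high in E11 and E15 progenitors at mesenchyme means under 9.

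Gja4, the gene of an endothelial connexin, stood above the filter mainly around birth. P1 beta cells had 9.68, 9.77 and 9.45, and E17 beta cells 8.56, 7.47 and 8.58. P1 alpha cells had 8.86, 6.96, 6.68 and 7.04, of which replicate 1 was the highest. Acinar cells had 6.50, 7.18 and 6.73, adult duct cells 6.01, 7.27, 6.50 and 7.47, and every array of the other 8 populations lay between 5.20 and 6.29. The P1 beta arrays were separated from those of E17 beta cells, the next in order, and the acinar arrays from those of E15 progenitors. All other neighbours overlapped.

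Gja4 rose by 2.26 in E17 against E15 beta cells (SE 0.33, adjusted p 1.8e-06) and by 1.43 in P1 against E17 beta cells (SE 0.35, adjusted p 0.0051). It fell by 3.82 in P15 against P1 beta cells (SE 0.33, adjusted p 1.3e-12) and by 1.67 in adult against P1 alpha cells (SE 0.29, adjusted p 6.9e-06). P1 beta cells exceeded P1 alpha cells by 2.25 (SE 0.33, adjusted p 6.0e-07). The P1 against E17 call was lost without E17 beta replicate 2 (1.06, adjusted p 0.0643), in the methods' t-test (adjusted p 0.153) and in the limma fit on these arrays alone (adjusted p 0.0510). Endothelial markers followed the same course. All 12 were called higher in E17 than in E15 beta cells (7.29% of all probes). All 12 were called lower in P15 than in P1 beta cells (14.5%) and in adult than in P1 alpha cells (13.1%). Their mean was 5.94 to 7.01 at E15, 9.46 to 10.63 at E17, 10.82 to 11.11 at P1, 5.51 to 6.94 at P15 and 5.94 to 6.21 in adult beta cells, and 5.46 to 5.65 in adult against 8.90 to 10.36 in P1 alpha cells. P1 alpha replicate 1, with the highest Gja4 of its group, had the highest endothelial mean (10.36 against 8.90 to 9.45). Pecam1, a defining endothelial gene, averaged 5.08 in P15 beta cells and 9.10 in P1 beta cells. Over the postnatal against the fetal beta cell populations Gja4 fell by 2.16 (SE 0.20, adjusted p 9.8e-12), with overlapping arrays. The 3 acinar arrays had endothelial means of 8.61 to 9.68, overlapping with those of P1 alpha cells, with Gja4 at 6.50 to 7.18. A list of 8 smooth muscle and pericyte genes averaged 6.65 to 7.42 at E15, 8.82 to 9.48 at E17, 10.04 to 10.62 at P1 and 5.89 to 6.52 at P15 in beta cells. The part of endothelial and muscle RNA in the Gja4 differences was not tested. Gja5, the other vascular connexin gene, read between 3.57 and 5.04 over all 48 arrays and was not tested; its highest mean was 4.54 ± 0.34 in adult alpha cells (SD, n = 5).

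The members were then counted in each comparison, beside the share of all 32078 probes called. From E11 to E15 progenitors 1 of 6 members was called, and 11.3% of all probes were. In acinar cells against E15 progenitors the count was 0 of 6, against 9.90% of all probes by limma. Of the members, 2 had an unadjusted p under 0.05 there, Gjd2 (-0.93, SE 0.27, adjusted p 0.0111) and Gja4 (0.74, SE 0.35, adjusted p 0.144), and the methods' t-test called 0. Gjd2 passed the fold without E15 progenitor replicate 1 (-1.14), E15 progenitor replicate 3 (-1.11) or acinar replicate 1 (-1.08), and a second Gjc1 probe was called (-1.07, adjusted p 0.0293). In endocrine progenitors against E15 progenitors 5 of 6 were called, 1 higher and 4 lower, where 19.2% of all probes were. Gja4 was the exception. In Neurog3-null cells against endocrine progenitors 3 of 6 were called, against 31.1% of all probes, and in Neurog3-null cells against E15 progenitors 1 of 6, Gjc1, against 18.0%. Adult duct cells against E15 progenitors gave 2 of 6, against 33.4%, of which Gjd2 (-1.15, SE 0.26, adjusted p 1.9e-04) compared arrays that were under 100 on the linear scale in both populations. That call was lost without E15 progenitor replicate 2 (-0.77) or adult duct replicate 4 (-0.95), and Gja4 was called without adult duct replicate 1 (1.01, against 0.75 with all arrays). Over the 8 endocrine against the 4 other wild-type populations 5 of 6 were called, against 19.9% of all probes, with Gja4 (0.45, SE 0.14, adjusted p 0.0047) under the minimum fold. Gjc1 passed there narrowly (-1.12, SE 0.16, adjusted p 3.6e-08). It did not pass in the methods' t-test (adjusted p 0.105) or with a second probe (-0.98). Many of these comparisons share the E15 progenitor or endocrine progenitor arrays and are not independent of each other.

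Along beta cell development 0 of 6 members were called in E15 beta cells against endocrine progenitors (9.43% of all probes by limma). Gjd2 differed there by 0.81 (SE 0.26, adjusted p 0.0174), was the sole member with an unadjusted p under 0.05, and passed the fold with the mean of its probes (1.12), while the methods' t-test called 0. In E17 against E15 beta cells 2 of 6 were called higher, where 7.29% of all probes were called higher and 9.80% in either direction. Gjb2 differed there by -1.42 (SE 0.56, adjusted p 0.0600), without overlap between the arrays, and was called lower in the methods' t-test (adjusted p 0.0249), with array weights (-1.31, adjusted p 0.0189), with each array centred on its median (-1.46, adjusted p 0.0494) and in the limma fit on these arrays alone (adjusted p 0.0036). The methods' t-test thus called 1 member lower and, with Gjc1 lost, 1 higher. In P1 against E17 beta cells 2 of 6 were called higher, against 3.81% of all probes called higher. Gjb1 was a further call there at 1.02 without P1 beta replicate 1. In P15 against P1 beta cells 4 of 6 were called lower, against 14.5% of all probes called lower. In adult against P15 beta cells 1 of 6 was called higher, against 6.23% called higher. In either direction 6.21%, 25.5% and 7.81% of all probes were called in these comparisons. The shift at P15 was in 1 direction for Gja1, Gja4, Gjb2 and Gjc1, with a median of -2.65 over the 6 members and 0.12 over all probes. Postnatal against fetal beta cells gave 3 of 6, all lower, where 11.8% of all probes were called lower and 19.6% in either direction. Adult against P1 alpha cells gave 5 of 6, all lower, where 13.1% of all probes were called lower and 20.8% in either direction. The median there was -1.94 over the members and 0.04 over all probes. Gjb1 was the exception (-0.05, SE 0.23). P1 beta cells exceeded P1 alpha cells in 2 of 6 members (19.8% of all probes), and adult beta cells exceeded adult alpha cells in 3 of 6 (17.3%).

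**Figure D4:**
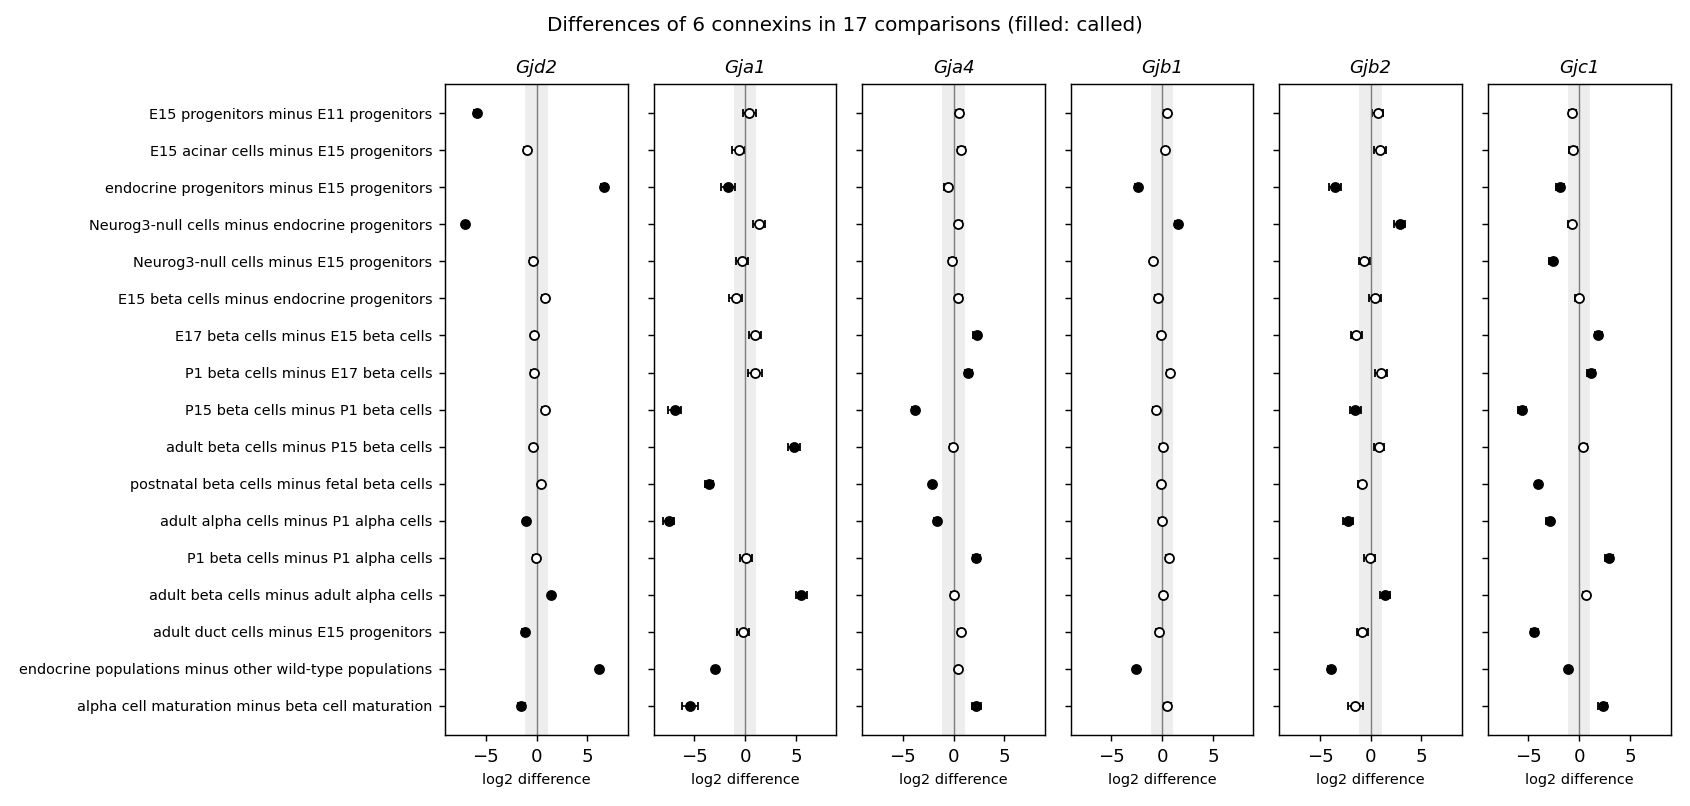
Log2 difference (x axes, point) with its SE (bar) for 6 connexins in 17 comparisons, each named as first population minus second, with called differences filled and the band within 1 of 0 shaded. Gjd2 lies at -7.02 in Neurog3-null cells minus endocrine progenitors, where Gjb2 lies at 2.85, and Gja1, Gja4, Gjb2 and Gjc1 all lie below -1 in P15 minus P1 beta cells.

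Whether the step from P1 to adult age differed between alpha and beta cells was tested as a difference of differences. It was called for 4 of 6 members, against 20.7% of all probes. Gja1 changed by -7.53 in alpha and -2.11 in beta cells, a difference of -5.42 (SE 0.82, adjusted p 2.3e-06). Gjd2 changed by -1.03 in alpha and 0.46 in beta cells, a difference of -1.49 (SE 0.34, adjusted p 6.9e-04). For Gja4 and Gjc1 the difference was positive, but both adult populations lay under 100 on the linear scale in every array, so the sizes of the steps are not exact and their difference follows the one between P1 beta and P1 alpha cells given above. Gja4 changed by -1.67 in alpha and -3.92 in beta cells, a difference of 2.25 (SE 0.44, adjusted p 1.0e-04), and Gjc1 by -2.90 and -5.21 in the same order, a difference of 2.30 (SE 0.48, adjusted p 2.6e-04). For Gjb2 it was -1.54 (SE 0.74, adjusted p 0.104), and without P1 alpha replicate 2 it was -1.99 and called. The mesenchyme and endothelial means given above were lower in P1 alpha than in P1 beta cells, and the macrophage mean was 5.47 to 6.02 in adult alpha arrays against 10.80 to 11.54 in adult beta arrays. Their part in these differences was not tested.

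Other genes of the family and of gap junction assembly were read for context. Of 13 further connexin genes, 7 had a probe of their own and 2, Gjb5 and Gjd4, passed the filter. Gjb5, known from skin and placenta, rose by 2.87 in E17 against E15 beta cells (SE 0.28), with 8.81, 6.55 and 7.29 at E17 and 5.07, 4.57, 4.67 and 4.40 at E15. It fell by 2.92 in P15 against P1 beta cells (SE 0.28), with 4.82, 5.13, 4.75 and 5.09 at P15 and 7.61, 7.82 and 8.19 at P1. Thus Gjb5 passed 100 on the linear scale at P1 and in 2 of 3 E17 beta arrays, and not in P1 alpha cells, where it was 5.48, 4.79, 5.01 and 4.46 and 2.94 lower than in P1 beta cells. Gjd4 was called in no comparison.

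The pannexins form channels of related shape that open to the outside of the cell. Panx2 rose by 2.44 in P15 against P1 beta cells (SE 0.25, adjusted p 9.2e-11), with 9.26, 9.83, 10.11 and 9.97 at P15 and 7.28, 7.39 and 7.37 at P1, a direction opposite to that of the 4 called connexins. It rose by 1.20 in adult against P1 alpha cells (SE 0.22, adjusted p 1.4e-05), where Panx1 fell by 1.16 (SE 0.15, adjusted p 2.4e-08). Over the 8 endocrine against the 4 other wild-type populations Panx2 was 1.45 higher (SE 0.11, adjusted p 1.8e-15) and Panx1 1.04 lower (SE 0.07, adjusted p 5.2e-16). Panx3 did not exceed 100 on the linear scale in any array.

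Of 20 genes for connexin partners and junction scaffolds, 17 had a probe of their own. In endocrine progenitors against E15 progenitors 4 of 17 were called higher and 1 lower, with a median of -0.10, against 9.06% and 10.1% of all probes. Camk2b, a calcium-dependent kinase subunit, rose by 4.09 (SE 0.22, adjusted p 2.1e-18), Cdh2, N-cadherin, by 2.29 (SE 0.28, adjusted p 9.4e-09), and Dbn1, an actin-binding protein of junctional plaques, by 2.06 (SE 0.26, adjusted p 3.9e-08). In Neurog3-null cells against endocrine progenitors 2 were called higher and 6 lower (median -0.60), against 14.7% and 16.4% of all probes. Camk2b fell there by 4.73, Dbn1 by 3.53 and Cdh2 by 1.76. In P15 against P1 beta cells 1 was called higher and 5 lower (median -0.32), led by Cav1, the caveolin of endothelium and mesenchyme (-6.75), and Des, the muscle intermediate filament (-3.44), and followed by Dbn1 (-2.50) and Vcl (-1.21). In adult against P1 alpha cells 0 were called higher and 6 lower (median -0.84), against 7.70% and 13.1% of all probes. Among the 6 were Cav1 (-2.95), Ctnnd1, a catenin bound to cadherins (-1.95), Ocln, a tight junction protein (-1.66), and Ezr, a linker to the actin cortex (-1.34). In each of the other 13 comparisons 0 to 4 partners were called higher and 0 to 4 lower. Of all probes, 6.21% to 33.4% were called there in either direction.

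The genes whose population means most resembled those of each member were sought among 14405 genes, as a description over 13 points. For Gjd2 these were Slc7a14 (r 0.99), Pax6 (r 0.99), a transcription factor of the islet lineages, and Hepacam2 (r 0.99). For Gja1 they were Gpm6b (r 0.98), Vim (r 0.98), an intermediate filament, and Zfp36l1 (r 0.97), all lowest in adult alpha cells. For Gja4 they were Cavin3 (r 0.98), Ushbp1 (r 0.98) and Vwf (r 0.97), the von Willebrand factor of endothelium, all highest in P1 beta cells. For Gjb1 they were Slc35f2 (r 0.98), Rnf43 (r 0.96), a membrane ubiquitin ligase, and 2310057J18Rik (r 0.96). For Gjb2 they were Nr0b2 (r 0.98), an orphan nuclear receptor, Rnf43 (r 0.97) and Naa50 (r 0.96), so that Rnf43 was named with both. For Gjc1 they were Nox4 (r 0.95), Fbln1 (r 0.95) and Gpc3 (r 0.95), of which Fbln1, a matrix protein, also stood in the mesenchyme list.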

How the data were processed

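The authors sorted pancreatic cells, amplified their RNA, hybridized it to Affymetrix Mouse 430 2.0 arrays and normalized the arrays by RMA (R 2.11.1), which corrects background, gives the arrays 1 distribution and summarises the oligonucleotides of each probe. The deposited log2 values of 45101 probes on 48 arrays were used as they stand, without missing values or duplicate arrays. RMA values compare populations and count no molecules. The number of arrays limits the precision, and a difference from a level under 100 (linear) is inexact.

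Genes were named from the platform annotation (34958 probes with 1 gene, 932 with several and 9211 with none). Probes above 100 on the linear scale in at least 1 array (32078) were tested with limma 3.58.1 in R 4.3.3, 1 mean per population over all arrays, with 35 residual degrees of freedom. Several populations on a side had equal weight. The study's methods state a t-test at the same thresholds, which was run as an alternative, beside other filters, normalizations, probes, array weights, a replicate block and leaving out each array. A fit on the arrays of the comparison only was chosen after seeing the data. The methods describe each replicate as made from pooled pancreata or animals.

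The text names the 7 members, the 3 most similar genes of each of the 6 tested, and up to 4 called genes per related list. Members and lists were chosen with earlier results of these data known, and list counts support nothing beyond themselves. Deviations of same-numbered arrays correlated weakly in E15 and E11 progenitors (r 0.106 to 0.148 over 3 pairs). The labels state no pairing, and these cells came from different reporter embryos of different ages. The other comparisons had at least 1 pair under 0.1, and their pairs ran from -0.42 to 0.30.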

Additional observations from a re-analysis of the deposited data

Results flagged for a closer look

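In 5 of 56 groups of at least 4 arrays, a single array lay apart from the others of its population, and chance alone would set about 1 in 20 groups apart in this way. Gja1 was 13.22 in adult duct replicate 2, against 12.81 to 12.85 in the other 3 arrays. Gja4 was 8.86 in P1 alpha replicate 1, against 6.68 to 7.04 in the others. Gja5, which stayed under 100 on the linear scale throughout, was 3.58 in P1 alpha replicate 2, against 3.98 to 4.01 in the others. Gjb2 was 9.38 in Neurog3-null replicate 1, against 10.65 to 10.91 in the others. Gjc1 was 5.43 in adult alpha replicate 2, against 4.62 to 4.81 in the others.

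The step from P1 to adult age differed between alpha and beta cells for 4 members, by a test of the difference of differences (limma, alpha step minus beta step). The difference was -1.49 for Gjd2, -5.42 for Gja1, 2.25 for Gja4 and 2.30 for Gjc1. For Gja4 and Gjc1 no array of adult alpha or adult beta cells exceeded 100 on the linear scale, so these values follow the difference between P1 beta and P1 alpha cells (2.25 and 2.95) and are not exact.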

How the results depend on the processing

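Of 43 member differences called, 33 were called under every alternative run, and of 1060 alternative values 47 lost the call and 0 changed sign. With no minimum fold, 1 member passed in acinar cells against E15 progenitors, 2 in Neurog3-null cells against E15 progenitors, 1 in E15 beta cells against endocrine progenitors and 5 in postnatal against fetal beta cells. Gjd2 and Gjb1 were then added in P15 against P1 beta cells, and Gjb1 in P1 beta against P1 alpha cells. Gja4 was added in adult duct cells against E15 progenitors and in the endocrine against the other wild-type populations. For the alternatives that follow, smaller changes of a count are not all listed. With the mean of all probes of a gene, 1 passed in E15 beta cells against endocrine progenitors, 1 in P1 against E17 beta cells and 1 in adult duct cells against E15 progenitors. The methods' t-test called 0 in P1 against E17 beta cells, 0 in adult against P15 beta cells and 1 in adult duct cells against E15 progenitors. Array weights gave 2 in adult against P15 beta cells and 1 in adult duct cells against E15 progenitors. A fit on the arrays of the comparison only, chosen after seeing the data, called 0 in P1 against E17 beta cells. With the replicate number as a block, 1 passed in adult duct cells against E15 progenitors in place of 2 (Gjd2 was lost at -0.95), and Gjb2 was lost in P15 against P1 beta cells; the block changed no other call of a member. The cause of these changes was not tested.

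When 1 array was left out in turn, the count ran from 0 to 1 in acinar cells against E15 progenitors, 1 to 2 in Neurog3-null cells against E15 progenitors, 0 to 3 in P1 against E17 beta cells, 1 to 2 in adult against P15 beta cells, 3 to 4 in postnatal against fetal beta cells and 1 to 3 in adult duct cells against E15 progenitors. It ran from 3 to 4 in P15 against P1 beta cells and from 4 to 5 in adult against P1 alpha cells. The range was 2 to 3 in adult beta against adult alpha cells and 4 to 5 in the difference of differences. In endocrine progenitors against E15 progenitors it was 4 each time, without Gja1.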

Other observations

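Gje1, a further connexin gene that did not exceed 100 on the linear scale in any array, had its highest means in E17 beta cells (4.93) and E15 beta cells (4.45), against 2.82 to 3.57 in the other 11 populations. It was not tested.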
